A study of Homo sapiens with 6 samples.

Results

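The luminal factor and hormone receptor genes are 6 genes, each read by 1 probe, out of the 47231 probes on the arrays. They are ESR1 (probe ILMN_1678535), PGR (ILMN_1811014), FOXA1 (ILMN_1766650), GATA3 (ILMN_2406656), TFF1 (ILMN_1722489) and TFF3 (ILMN_1811387). The probes were taken by ID from a list that pairs each with its gene; no measured value is part of that rule, but the list was drawn up with earlier results of these data known. Neither deposited table names genes and no platform annotation was used here, so the pairs were not checked against one; all 6 symbols are in the RefSeq gene table. Other probes of these genes may be on the array and were not analysed here.

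The arrays compared SKBR3 cells overexpressing CDCP1 with SKBR3 control cells, whose sample titles name GFP. There were 3 arrays in each group. The names of all 6 share 1 number and differ by a letter. The number was taken here as 1 slide and the letter as the section on it, which the labels do not state. SKBR3 is an established human breast cancer line with an amplified ERBB2 (HER2) gene, and it is classed as negative for the estrogen and progesterone receptors. CDCP1 is a transmembrane glycoprotein that SRC family kinases phosphorylate. The labels number the samples of a group as experiments and do not say whether these were separate cultures, so p-values here weigh a difference against the spread of these samples alone, and that spread may be technical. The labels do not say how CDCP1 was delivered, or whether each line was a clone or a pool. The CDCP1 transcript was not analysed here, so the overexpression label was not checked, and neither were the line's defining markers.

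In luminal breast epithelium, FOXA1, a forkhead factor, binds closed chromatin and opens sites for the estrogen receptor, the hormone-activated transcription factor encoded by ESR1. GATA3, a zinc finger factor, takes part in the same network and maintains luminal differentiation. PGR, which encodes the progesterone receptor, and TFF1, which encodes a small secreted trefoil peptide, are classical transcriptional targets of the estrogen receptor. TFF3 encodes a further trefoil peptide and is also estrogen-responsive in breast cancer cells. In the RefSeq gene table TFF3 and TFF1 lie near each other on chromosome 21, with TFF2 and 1 long noncoding RNA gene between them.

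RefSeq promoter windows (GRCh38.p14) were found for 4 of the 6 genes, all except TFF1 and TFF3. The windows of the receptor target PGR and of the transcription factors FOXA1 and GATA3 are shown because they are the upstream DNA of genes whose probes stood at, far above and just above background. Each is the 250 bases before the gene's outermost RefSeq start site, 5′ to 3′ on the gene's strand, which need not be the start used in SKBR3 cells. Capitals mark matches, on either strand, to a forkhead core (TGTTTNC) or 1 arm of the palindromic estrogen response element (GGTCA).
PGR, chr11:101129814-101130063, minus strand: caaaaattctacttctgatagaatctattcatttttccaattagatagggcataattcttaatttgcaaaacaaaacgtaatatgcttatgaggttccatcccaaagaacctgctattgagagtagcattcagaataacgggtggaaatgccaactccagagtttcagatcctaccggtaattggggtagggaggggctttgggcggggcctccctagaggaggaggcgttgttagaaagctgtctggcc
FOXA1, chr14:37595250-37595499, minus strand: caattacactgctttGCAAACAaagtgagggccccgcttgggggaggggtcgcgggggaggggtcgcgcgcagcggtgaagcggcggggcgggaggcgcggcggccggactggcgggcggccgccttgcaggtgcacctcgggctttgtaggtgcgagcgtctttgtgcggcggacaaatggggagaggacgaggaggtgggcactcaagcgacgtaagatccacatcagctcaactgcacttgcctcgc
GATA3, chr10:8045083-8045332, plus strand: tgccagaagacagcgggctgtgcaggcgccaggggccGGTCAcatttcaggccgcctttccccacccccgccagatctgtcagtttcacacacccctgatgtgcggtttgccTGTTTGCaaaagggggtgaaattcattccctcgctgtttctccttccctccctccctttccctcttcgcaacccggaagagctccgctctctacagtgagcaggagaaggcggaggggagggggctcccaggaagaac
FOXA1's window held 1 forkhead core, on the strand opposite the gene and beginning 235 bases before the start site. GATA3's window held 1 forkhead core on the gene's strand, beginning 138 bases before the start, and 1 element arm on the gene's strand, beginning 213 bases before it. The outermost windows of PGR and of ESR1 held no match to either motif. RefSeq gave 3 windows for PGR, 6 for ESR1, 6 for GATA3 and 1 for FOXA1, and only the outermost of each gene was searched. Of the 35116 RefSeq windows of the same length, 15.46% held the forkhead core and 32.65% held the arm. The full response element (GGTCANNNTGACC) and a GATA core (AGATAA) were also searched on both strands and matched in none of the 4 windows; of all windows, 0.03987% held the element and 9.167% the GATA core. The arm is part of the full element, so these searches overlap. GC content was 67.2% in the FOXA1 window, 60.8% in that of GATA3, 43.6% in that of PGR and 36% in that of ESR1. A match is a description of the letters and shows no binding.

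FOXA1 and TFF3 stood far above the background peak on all 6 arrays, TFF1 modestly above it, GATA3 barely above it, and ESR1 and PGR lay within it. None of the 4 probes above background on enough arrays to be tested passed the test of CDCP1 against GFP cells. Background was taken as the peak of all values, at 6.62 on the log2 scale, with an SD of 0.0407; signals past a limit of 6.68 were taken as above background. The limit is lenient, and 30867 to 30880 probes passed it per array. The highest values of ESR1 (6.74) and PGR (6.76) lay within GATA3's range of 6.64 to 6.86, so it parts these probes only weakly. The comparison was tested with limma for the 31511 probes above that limit on at least 3 arrays, of which 4 were members. Across all of these, 5.26% passed an adjusted p of 0.05, and 0 of the 4 members did. In 22.0% of the tested probes the groups did not overlap, and in all 6 members, tested or not, they overlapped. Brightness depends on each probe's sequence, so the levels of different probes do not rank their transcripts by amount.

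**Figure D1:**
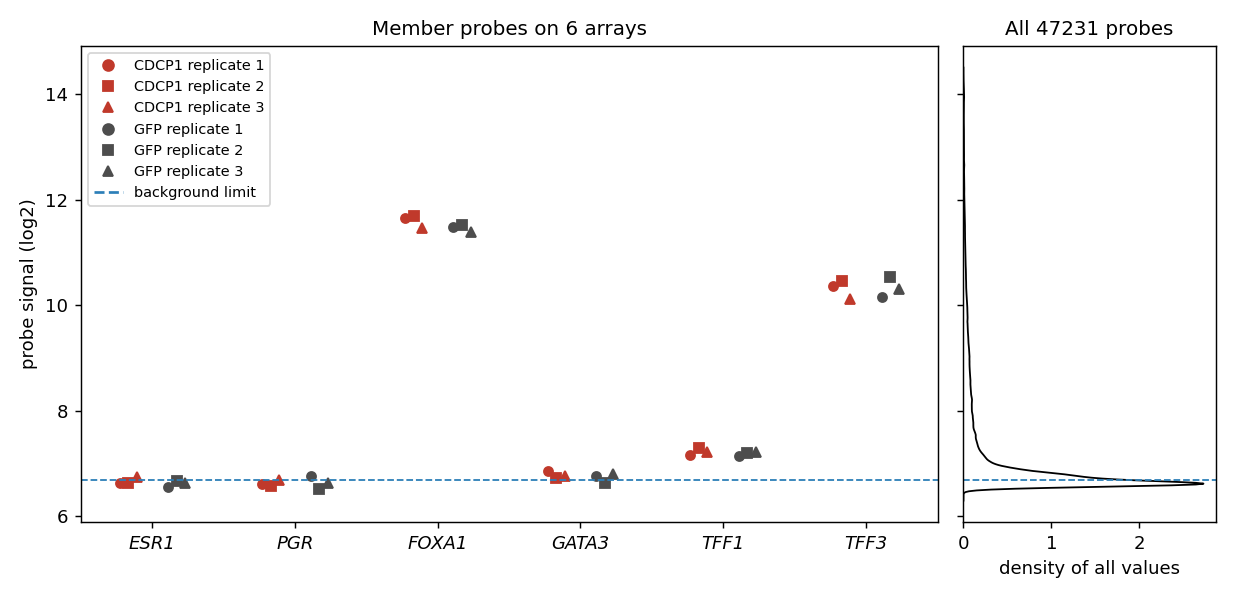
Left, log2 signal (y axis) of the 6 probes on each CDCP1 array (red) and each GFP array (grey); the dashed line is the background limit of 6.68. Right, the density of the values of all 47231 probes on the same axis, with its peak at 6.62. FOXA1 and TFF3 sit far above the limit on all arrays, and ESR1 and PGR straddle it.

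ESR1, the estrogen receptor gene, was not above background as a group in either cell population. Its probe read 6.63, 6.62 and 6.74 in CDCP1 cells, against 6.56, 6.66 and 6.64 in GFP cells. Of these arrays, only CDCP1 replicate 3 passed the limit, and the other CDCP1 values lay among the controls. The means were 6.66 ± 0.066 in CDCP1 cells and 6.62 ± 0.057 in GFP cells (SD, n = 3 each), or 0.0485 and 0.00485 above the background peak on the log2 scale. The probe was left out of the reported limma fit because it passed the limit on 1 array, and no fold is given between levels that lie in the background.

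PGR, the progesterone receptor gene and a target of the estrogen receptor, also lay in the background. Its probe read 6.61, 6.58 and 6.69 in CDCP1 cells, against 6.76, 6.53 and 6.63 in GFP cells. The limit was passed on 1 array of each group, and the highest and the lowest value both belonged to GFP cells. Means were 6.63 ± 0.059 in CDCP1 cells and 6.64 ± 0.12 in GFP cells (SD, n = 3 each), within 0.0236 of the background peak in both. PGR was left out of the test for the same reason as ESR1. Neither probe shows that its transcript was absent: a weak transcript and none at all give overlapping signals at this level.

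FOXA1 stood farthest above the background peak, and it had the largest fitted difference of the 4 tested. It read 11.65, 11.70 and 11.46 in CDCP1 cells, against 11.48, 11.51 and 11.39 in GFP cells. CDCP1 replicates 1 and 2 lay above all control arrays, while replicate 3 lay below 2 of them, so the groups overlapped. The mean was 11.60 ± 0.13 in CDCP1 cells and 11.46 ± 0.065 in GFP cells (SD, n = 3 each), which is 31.7-fold and 28.8-fold the brightness of the background peak. The log2 change was 0.14 (SE 0.076, 95% interval -0.026 to 0.31), or 1.10-fold, and it did not pass the test (limma adjusted p = 0.405). Of all tested probes, 22.3% had a larger absolute change. The interval reaches from 0.982-fold to 1.24-fold, and a larger rise in FOXA1 signal lies outside it.

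The FOXA1 difference varied with single arrays. Without CDCP1 replicate 3 it was 0.21 on the log2 scale (95% interval 0.050 to 0.37, limma adjusted p = 0.135), and without CDCP1 replicate 2 it was 0.092 (adjusted p = 0.695). CDCP1 replicate 1 stood apart from its group across the arrays as a whole, with an array weight of 0.381 in limma. Without it the FOXA1 change was 0.12 (limma adjusted p = 0.498). With all arrays kept and array weights in the fit, the FOXA1 change was 0.16 (95% interval 0.0012 to 0.32, limma adjusted p = 0.245). All intervals here are for a single probe and are not adjusted for the number of probes tested. An interval can therefore exclude 0 where the adjusted p does not pass. Changing only the filter, variance model, block or table leaves the log2 change at 0.14 by construction. In the other alternative settings it ran from 0.092 to 0.21. Over all 16, limma's adjusted p ran from 0.135 to 0.744.

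GATA3, the zinc finger partner of FOXA1 in the luminal network, was barely above background by the probe used. It read 6.86, 6.73 and 6.76 in CDCP1 cells, against 6.76, 6.64 and 6.81 in GFP cells. All CDCP1 arrays and 2 of the GFP arrays passed the limit, and GFP replicate 2 fell below it. Means were 6.79 ± 0.069 in CDCP1 cells and 6.74 ± 0.089 in GFP cells (SD, n = 3 each), or 0.171 and 0.120 above the background peak on the log2 scale. Both SDs were larger than the background SD of 0.0407 that set the limit. The log2 change of 0.05 (SE 0.069, 95% interval -0.10 to 0.20) did not pass the test (limma adjusted p = 0.814). This near-background signal is that of 1 probe, and GATA3 transcripts it does not match would not be seen. Differences this close to background are compressed. After normexp background correction the log2 change was 0.083 (95% interval -0.13 to 0.30), still not called (limma adjusted p = 0.773). The correction stretches noise near background as well, so the larger value does not show a compressed difference between the groups.

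**Figure D2:**
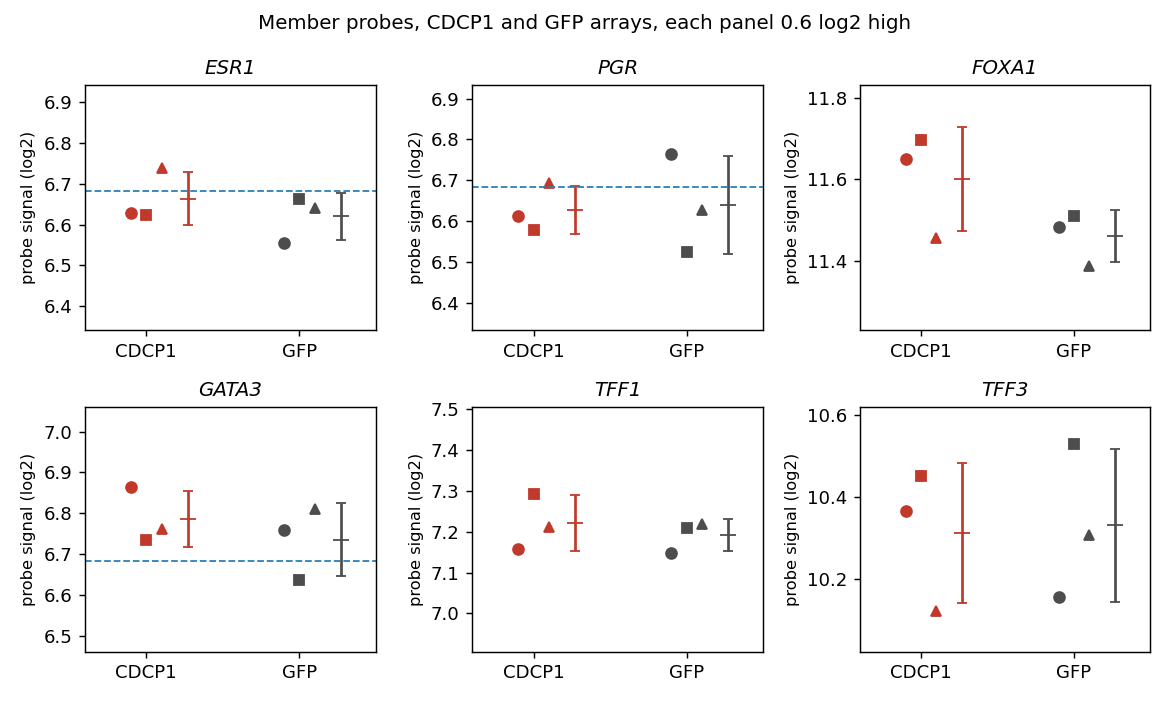
Log2 signal (y axis) of each probe in CDCP1 cells (red, left) and GFP cells (grey, right), with replicate 1 as circles, 2 as squares and 3 as triangles; bars are the mean ± SD of 3 arrays. All panels span 0.6 on the log2 scale, and the dashed line is the background limit of 6.68. The groups overlap in all 6 panels.

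TFF1, the trefoil gene most used as a readout of the estrogen receptor, gave a low but steady signal. It read 7.16, 7.29 and 7.21 in CDCP1 cells, against 7.15, 7.21 and 7.22 in GFP cells. All 6 values were above the limit, and CDCP1 replicate 2 alone lay above the control range. The means were 7.22 ± 0.068 in CDCP1 cells and 7.19 ± 0.038 in GFP cells (SD, n = 3 each), or 1.52-fold and 1.49-fold the background peak. The groups differed by 0.03 on the log2 scale (SE 0.063, limma adjusted p = 0.899), with a 95% interval of -0.11 to 0.17. Its pooled within-group SD was 0.0553, smaller than the median of 0.0815 among the 17853 tested probes within 0.5 log2 of its mean signal.

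TFF3, the other trefoil gene, was bright in both cell populations. It read 10.36, 10.45 and 10.12 in CDCP1 cells, against 10.16, 10.53 and 10.31 in GFP cells. The lowest value belonged to CDCP1 cells and the highest to GFP cells, and the ranges lay almost on top of each other. Means were 10.31 ± 0.17 in CDCP1 cells and 10.33 ± 0.19 in GFP cells (SD, n = 3 each), or 13.0-fold and 13.1-fold the background peak. The groups differed by -0.02 on the log2 scale (SE 0.11, limma adjusted p = 0.967). The 95% interval, -0.25 to 0.21 or 0.840-fold to 1.16-fold, was the widest of the 4 tested members.

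**Figure D3:**
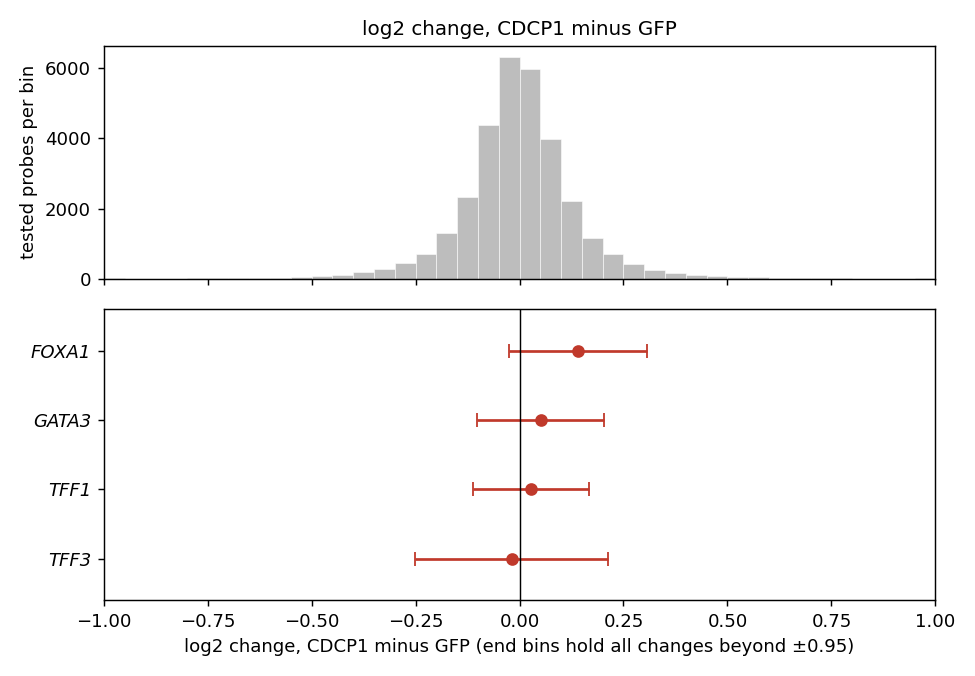
Top, the number of tested probes (y axis) by log2 change, CDCP1 minus GFP (x axis), over 31511 probes. Bottom, the log2 change of the 4 tested members with its 95% interval from limma. In this fit, without array weights, all 4 intervals include 0, and FOXA1 lies farthest from it at 0.14.

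The members' SDs within a group also differed, but each rests on 3 arrays per group and is imprecise. Whether the members differ in steadiness was not tested. TFF3's pooled within-group SD was 0.180, larger than that of 84.4% of the 1587 tested probes within 0.5 log2 of its mean. FOXA1's was 0.101, larger than that of 45.3% of the 753 tested probes of like brightness. TFF3 was lowest on CDCP1 replicate 3 and GFP replicate 1, in slide sections 10 and 11, and highest on GFP replicate 2, in section 2. Sections were counted by the letter in the array's name. On the other 3 arrays, in sections 4, 6 and 8, it read 10.31, 10.36 and 10.45, rising with section. The signal therefore did not fall steadily along the slide. With section as a covariate the TFF3 change was 0.08 in place of -0.02 on the log2 scale, not called in either fit (limma adjusted p = 0.759 and 0.967), and the part of slide position in TFF3's spread was not tested. FOXA1 and TFF3 had their highest value on the same array in each group, replicate 2, and in CDCP1 cells also their lowest, on replicate 3; in GFP cells their lowest values fell on different arrays.

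**Figure D4:**
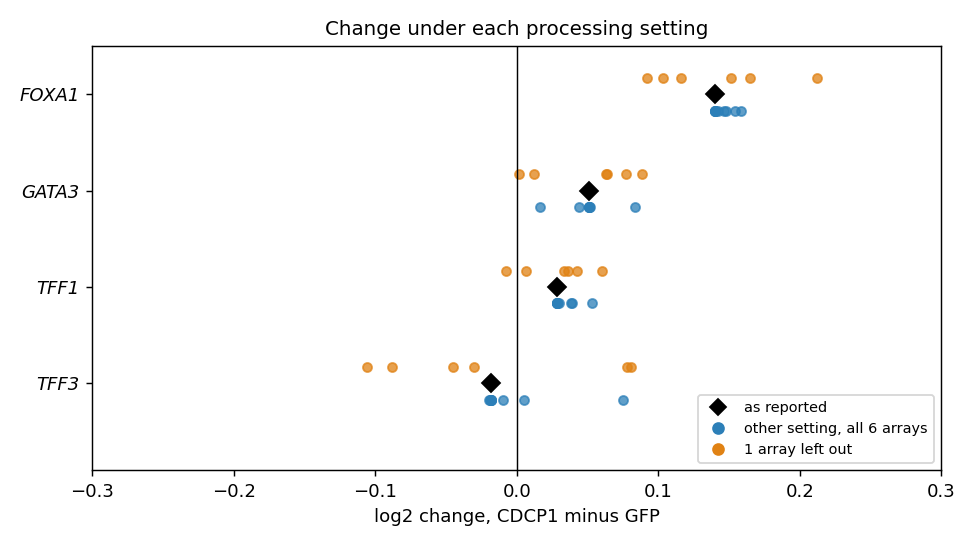
Log2 change, CDCP1 minus GFP (x axis), of the 4 tested members as reported (black), with all 6 arrays under another setting (blue) and with 1 array left out (orange). FOXA1 stays above 0 throughout, from 0.092 to 0.21, while TFF1 and TFF3 fall on both sides of 0. Settings that change only the filter, variance model, block or table repeat the black value by construction.

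A p that misses the threshold does not show that the transcripts are equal in CDCP1 and GFP cells. In the fit reported here, the 95% intervals of the tested members lay between 0.840-fold and 1.24-fold, so larger changes in probe signal fall outside them. With 1 array left out they reached farther: to 0.37 on the log2 scale for FOXA1 without CDCP1 replicate 3, and to -0.35 for TFF3 without GFP replicate 1. All of them rest on the spread of these samples, which may be technical. For GATA3 and TFF1, whose signals hold much background, these bounds are on the signal and would be wider for the transcript.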

How the data were processed

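Biotin-labelled cRNA from 6 SKBR3 samples was measured on Illumina bead arrays. The arrays were read with GenomeStudio, per the submitters' processing notes; neither its version nor the normalization method was stated there. The values the authors deposited are log2 signals, as judged from their range of 6.45 to 14.35, and the authors had normalized them between arrays: array medians differed by at most 0.000523. The 2 deposited tables differed in 0 values. They hold no detection p-values, so background was estimated from the peak of all values (density bandwidth 0.01) and the limit set 1.645 SDs above it. That SD was taken about the peak from the values below it. The number of arrays limits the precision (median SE 0.0706).

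Probes above the limit on at least 3 of 6 arrays were tested (31511 of 47231) in limma 3.58.1 under R 4.3.3 (lmFit, then eBayes), without covariates, two-sided, with Benjamini-Hochberg adjustment over all tested probes. The fit was tested on simulated data. All 6 members were named; genes of similar pattern were to be named for called members only, and none was called. The members, lists and background limit were chosen with earlier results of these data known. Lists of estrogen receptor targets, luminal, basal and apocrine genes, other nuclear receptors, coregulators, paralogs of the members and cell type markers were not analysed here, since probes were not paired with genes. The experiment numbers were not taken as pairing: deviations of same-numbered arrays correlated at -0.27, -0.30 and 0.16 across probes. Alternatives changed the normalization, background, filter, variance model, array weights, block, slide position and table, or left out 1 array.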

Additional observations from a re-analysis of the deposited data

How the results depend on the processing

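None of the 4 tested members was called in any alternative run. Changing only the filter, variance model, block or table leaves a log2 change as it was by construction. In their other alternatives FOXA1 and GATA3 kept a positive change. GATA3 has no value under the filter on all 6 arrays, which removed it. Without a filter ESR1 and PGR were fitted too, and neither was called (limma adjusted p = 0.848 and 0.980). That run compares levels that lie in the background, and the differences of these 2 probes are not given. TFF1 was -0.0077 without CDCP1 replicate 2, against 0.028 with all arrays. TFF3 reversed to 0.0051 with array weights, 0.075 with slide position as a covariate, 0.081 without GFP replicate 2 and 0.078 without CDCP1 replicate 3; the cause was not tested. Leaving out 1 array gave 0.092 to 0.21 for FOXA1, 0.0017 to 0.089 for GATA3, -0.0077 to 0.060 for TFF1 and -0.11 to 0.081 for TFF3. Over all tested probes, 1657 were called; the count was 2611 with array weights, 1085 with a replicate block on the experiment number, 600 to 2124 without 1 array, and within 1.5 times otherwise. With the replicate block FOXA1's limma adjusted p was 0.393, and the block changed no member's call. Signal over background limits ESR1, PGR and GATA3.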
